A study of Macaca mulatta with 33 samples.

Results

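Nuclear receptors are transcription factors, many of them switched by a small lipid-soluble ligand such as a steroid, a retinoid, an oxysterol or a fatty acid, and others, called orphans, regulated through their own level or through partner proteins. Most bind DNA near their target genes as dimers, often with a retinoid X receptor (RXR) as the partner, and recruit coactivators or corepressors. In the corpus luteum, the ovarian gland that secretes progesterone, the orphan receptors NR5A1 and NR5A2 drive genes of steroid synthesis and members of the NR4A family respond quickly to gonadotrophin. The members described here are 45 genes of this superfamily, the progesterone receptor left out, taken from a list of gene symbols and matched to the probe sets that the array annotation assigns to a single symbol. Of the 45 genes, 34 had such a probe set, among 14132 genes in the whole series. For 26 of the 34 at least 1 probe set exceeded the median of all values on the arrays, a log2 intensity of 6.19, on at least 4 arrays, and these 26 were tested among 10507 genes.

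The study measured RNA of isolated luteal tissue from adult, naturally cycling rhesus monkeys on 33 Affymetrix rhesus arrays, in 7 groups. Human chorionic gonadotrophin (hCG), the hormone by which an early pregnancy sustains the corpus luteum, was given in rising doses from day 9 of the luteal phase. Tissue was taken on luteal day 10, after 1 day of hCG, or on day 15, after 6 days. Some females also received trilostane (TRL), which blocks 3β-hydroxysteroid dehydrogenase and with it progesterone synthesis, or trilostane together with R5020, a synthetic progestin that restores progestin action without progesterone. The groups were untreated day 10 tissue (8 samples), day 10 hCG, day 10 hCG with TRL, day 10 hCG with TRL and R5020 (4 samples each), and the same 3 treatments at day 15 (4 samples each). No untreated tissue of day 15 was used here. So 6 days of hCG and the later luteal day cannot be told apart in any comparison of day 15 with untreated tissue. The same holds for every comparison of 6 days with 1 day of hCG, with or without trilostane, as the luteal day differs there too. The labels do not say that each sample is a separate animal, and p-values then measure only the spread between these samples.

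The arrays fell into 3 sets by a number in their names, with set 1 holding all day 10 hCG and day 10 hCG with TRL arrays and set 2 all day 10 hCG with TRL and R5020 arrays. Untreated tissue was in sets 1 and 2, and the estimated difference between those sets comes mostly from the 8 untreated samples. Set 3 holds only 1 array of each day 15 group, so its difference from the others is estimated from day 15 arrays. Every comparison that crosses sets rests on these estimates. Levels below are log2 intensities, centred on each array's median, with the fitted set difference removed. Replicate 4 of both day 15 trilostane groups is in set 3, whose difference is estimated largely from these arrays. Their adjusted values are thus partly set by the fit, also where samples are said not to overlap. HNF4G, RXRA, RXRB, NR2F1 and NR2F6 were the 5 members whose levels differed between sets 2 and 1 in limma's test. Replicates 3 and 5 of day 15 hCG have 1 sample number between them in the array names, and their mean was used as 1 sample. Day 15 hCG with TRL replicate 4 and day 15 hCG with TRL and R5020 replicate 4 were about as alike (SD of differences over probe sets 0.192, against a median of 0.476 over 528 pairs of arrays), although the labels put them in different groups. The luteal markers STAR, HSD3B2, FDX1 and INHA were at 10.5 or higher on every array. These are pieces of tissue, so fewer cells of a type and less RNA per cell cannot be told apart.

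Across the 7 groups, 11 of the 26 receptors differed (limma's F test, Benjamini-Hochberg adjusted over all 28911 probe sets kept, p under 0.05), or 42.3%, where 17.8% of all genes tested did. By adjusted p the first were NR1D1 (0.00024), NR5A2 (0.00054) and NR4A1 (0.0015), followed by NR5A1, RXRA, NR2F1, RORA, NR1H4, NR2F6, NR4A2 and HNF4G. In 32 fits that each left out 1 sample, this call ended 24 times for HNF4G, 23 for NR4A2, 7 for NR2F6, 6 for NR1H4, 5 for RORA and 1 for NR2F1 (without day 15 hCG replicate 4), and never for NR1D1, NR5A2, NR4A1, NR5A1 and RXRA. Without the array set term the F test call ended for RXRA (adjusted p = 0.068), NR2F1 (0.092), NR2F6 (0.11) and HNF4G (0.2). With 1 day of hCG the test called as higher 3 members (5.52% of all genes were called in that comparison) and none as lower. With 6 days of hCG, 1 member was lower than in untreated tissue (6.13% of genes called), and 4 were lower than after 1 day (7.68%), with none higher in either. Among the comparisons added after the data were seen, day 15 hCG with TRL differed from untreated tissue in 6 members, 1 higher and 5 lower (9.76% of genes). Day 15 hCG with TRL and R5020 differed from untreated in 2, both lower (3.76%), day 10 hCG with TRL and R5020 in 1, lower (1.2%), and day 10 hCG with TRL in 0 of 26 by limma (2.84% of genes; 5 members at an unadjusted p under 0.05). All 6 comparisons with untreated tissue share the same 8 samples.

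Counted by samples rather than by the test, the values of 4 of the 26 members did not overlap between day 10 hCG and untreated tissue (7.4% of all genes did not), of 1 between day 15 hCG and untreated (6.28%) and of 4 between day 15 and day 10 hCG (12.8%). Against untreated tissue the numbers were 0 for day 10 hCG with TRL (5.57%), 1 with TRL and R5020 (4.09%), 9 for day 15 hCG with TRL (13.5%) and 5 with TRL and R5020 (8.03%). Between days they were 10 with TRL (25.1%), groups that share no array set, and 8 with TRL and R5020 (14.3%). For trilostane added to hCG they were 3 at day 10 (7.49%) and 4 at day 15 (9.7%), and for R5020 added to hCG with TRL 0 (7.26%) and 1 (3.4%). For trilostane with R5020 against hCG they were 9 at day 10 (11%), groups that lie wholly in different array sets, and 2 at day 15 (5.01%).

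**Figure D1:**
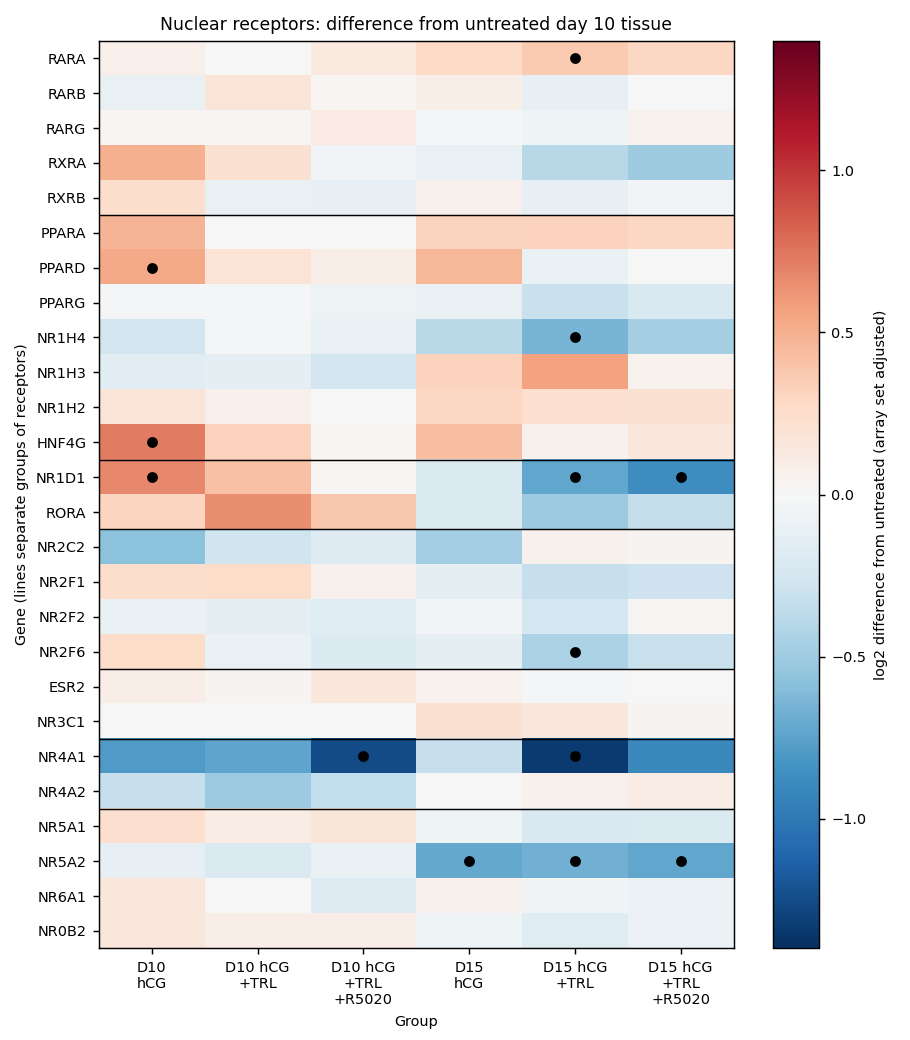
Colour gives the log2 difference of each treated group (columns) from untreated day 10 tissue for the 26 receptors tested (rows, grouped by kind), and a black dot marks an adjusted p under 0.05. NR5A2 is marked in all 3 day 15 groups, NR1D1 is marked as higher after 1 day of hCG and lower in both day 15 trilostane groups, and NR4A1 has the deepest blue, at -1.34 in day 15 hCG with TRL.

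NR5A2 (liver receptor homolog 1), an orphan receptor that drives genes of steroid synthesis in the ovary, was lower in all 3 day 15 groups than in untreated day 10 tissue. Its level ran from 10.98 to 11.40 (median 11.15) in the 8 untreated samples, and was 11.25, 11.18, 10.90 and 10.80 after 1 day of hCG. After 6 days of hCG it was 10.46, 10.11, 10.59 and 10.59. The day 15 hCG samples all lay below every untreated sample and every 1-day sample. The log2 difference was -0.71 ± 0.14 (SE) against untreated (a 1.64-fold lower intensity, adjusted p = 0.0026, limma) and -0.60 ± 0.15 against 1 day of hCG (adjusted p = 0.014). The second of these did not pass without day 10 hCG replicate 1 (0.05), without day 15 hCG replicate 2 (0.09) or within array set 1 (0.072), where the difference was -0.59. Within set 1 the difference from untreated was -0.72 (adjusted p = 0.033).

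The trilostane groups gave NR5A2 values of the same order. It was 10.34, 10.64, 10.49 and 10.44 in day 15 hCG with TRL, and 10.45, 10.24, 10.60 and 10.37 in day 15 hCG with TRL and R5020. None of these 8 samples reached the lowest untreated one. The differences from untreated were -0.67 ± 0.15 (adjusted p = 0.0054) and -0.73 ± 0.15 (0.0053). With TRL and R5020 in both groups, a comparison that shares no array with the one under hCG alone, NR5A2 was 10.87, 11.17, 11.11 and 11.05 at day 10, above all 4 day 15 samples, and the difference between days was -0.63 ± 0.15 (adjusted p = 0.024; 0.056 without the near-identical day 15 arrays, and 0.055 to 0.09 in the 5 of 32 fits leaving out 1 sample that ended the call, day 10 replicate 2 or 3 and day 15 replicate 1, 2 or 4). With TRL alone the day 10 samples were spread from 10.50 to 11.30 and overlapped those of day 15, and the difference of -0.47 ± 0.20 did not pass (adjusted p = 0.23). All 3 probe sets kept for NR5A2 gave nearly the same difference between day 15 hCG and untreated tissue, -0.71, -0.71 and -0.72.

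NR5A1 (steroidogenic factor 1), the close relative of NR5A2 that sets the steroid-making identity of gonadal and adrenal cells, moved less. It was 7.65, 7.73, 7.74 and 7.57 after 1 day of hCG and 7.24, 7.33, 7.41 and 7.51 after 6 days, with no overlap. The difference was -0.30 ± 0.09 (adjusted p = 0.045), a 1.23-fold lower intensity, and the call ended in 15 of 32 fits that each left out 1 sample, within array set 1 (-0.25, adjusted p = 0.22) and without the set term (0.074). Under TRL and R5020 the day 10 samples, at 7.80, 7.55, 7.51 and 7.53, again lay above the day 15 samples, at 7.22, 7.16, 7.28 and 7.25. That difference was -0.37 ± 0.09 (adjusted p = 0.031; 0.059 without the near-identical arrays, 0.074 within set 2, -0.30 and 0.14 without day 10 replicate 1). Untreated tissue, at 7.16 to 7.61 (median 7.44), overlapped both days.

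Of 12 genes listed as NR5A targets, 7 were measured: STAR, HSD3B2, FDX1, INHA, FDXR, CYP19A1 and NR0B2, itself a member. All 4 luteal markers measured are thus in this list too. HSD3B2, which makes progesterone from pregnenolone and is the enzyme trilostane inhibits, had a mean of 13.33 ± 0.28 (SD, n = 8) untreated, 13.78 ± 0.18 (n = 4) after 1 day and 12.33 ± 0.46 (n = 4) after 6 days of hCG. It was lower after 6 days than after 1 day by a log2 difference of -1.45 ± 0.29 (adjusted p = 0.003), as was FDXR, a reductase of the side-chain cleavage system, by -0.68 ± 0.17 (0.016). Against untreated tissue STAR, which carries cholesterol into the mitochondrion, was higher after 6 days by 0.30 ± 0.05 (0.00071) while HSD3B2 was lower by -0.995 ± 0.276 (0.032). So 1 of the 7 targets rose and 1 fell against untreated, 2 fell and none rose against 1 day, and the list's median was -0.10 in the latter comparison beside -0.02 over all genes. The summary level of the 4 luteal markers measured, of 8 listed, is the mean of their log2 values. It spanned 13.46 to 13.82 untreated, 13.41 to 13.67 after 6 days of hCG and 12.97 to 13.18 in day 15 hCG with TRL. In that last group against untreated, HSD3B2 was the only marker called, at -2.41 ± 0.29 (adjusted p = 1.6e-05, limma). Of the 4 markers 2 lay above 0 there, with a median of -0.03 beside -0.02 over all genes. The part of this summary level in the NR5A2 difference was not tested.

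The 2 relatives of this group that lack a DNA-binding domain, NR0B1 (DAX1) and NR0B2 (SHP), and the germ cell factor NR6A1 had low signals. NR0B2 exceeded 6.2 on 32 of 33 arrays and NR6A1 on 12, and neither passed any comparison. NR0B1, an inhibitor of NR5A1, never exceeded 6.2: it ran from 3.77 to 5.37 (median 4.48) untreated, from 3.90 to 4.13 after 1 day of hCG, and from 3.36 to 3.81 in day 10 hCG with TRL and R5020.

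**Figure D2:**
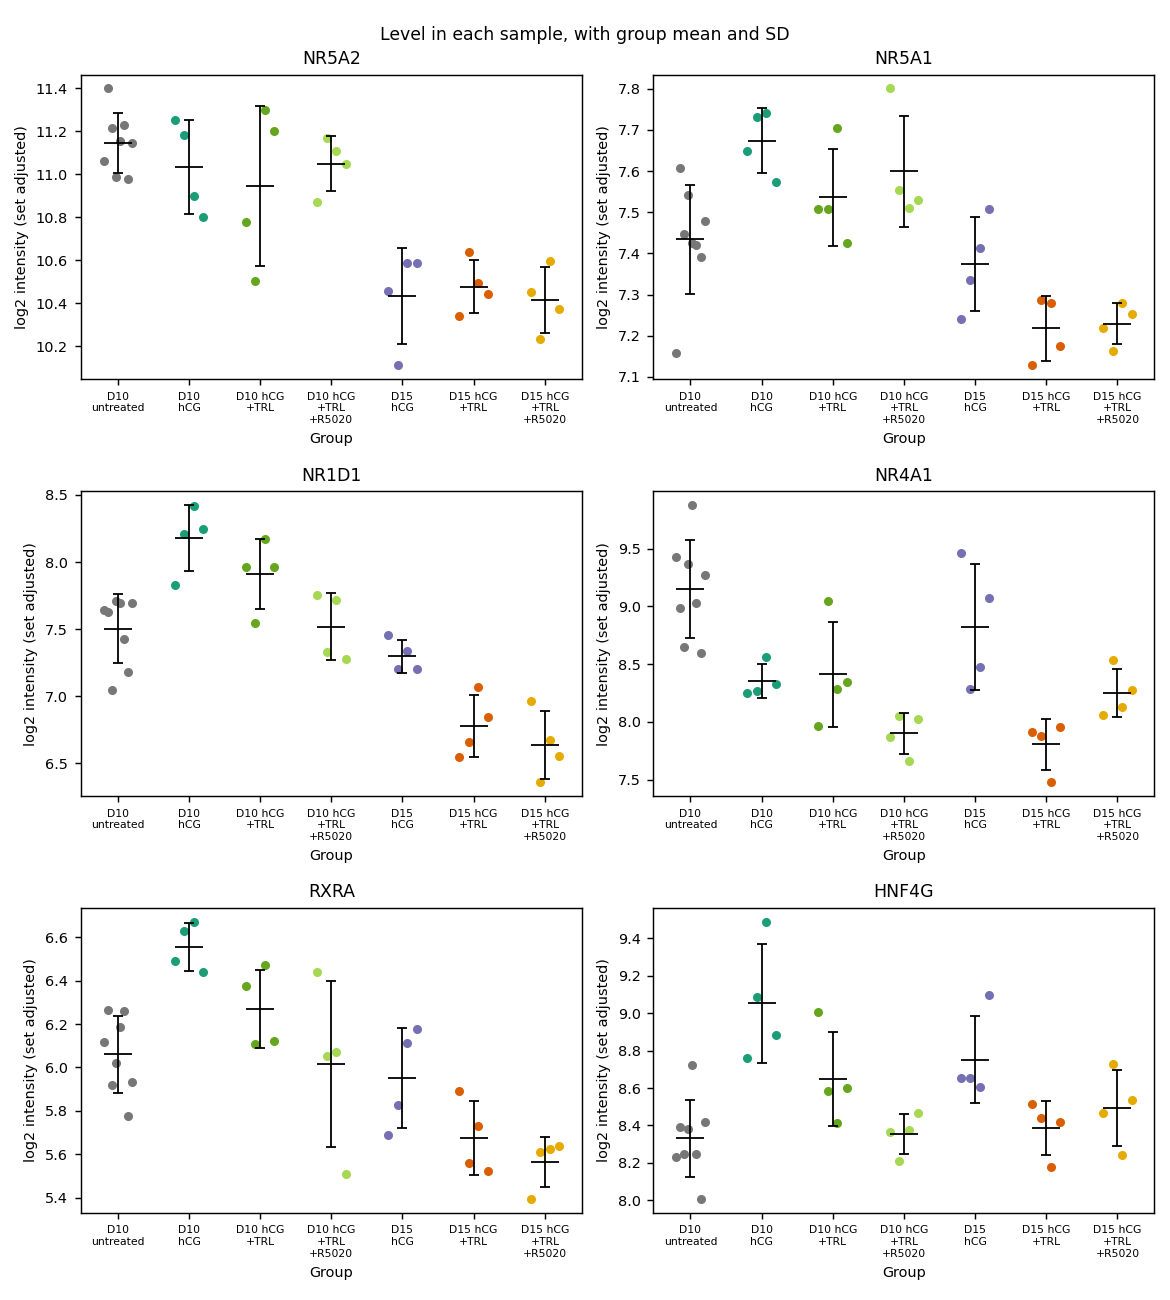
Each point is 1 sample's log2 intensity, adjusted for array set, for 6 receptors in the 7 groups, and black marks give the group mean with its SD (n = 8 untreated, n = 4 elsewhere). All 12 day 15 samples of NR5A2 lie at 10.64 or lower and all 8 untreated ones at 10.98 or higher, and NR1D1 is highest after 1 day of hCG and lowest in the day 15 trilostane groups.

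NR1D1 (REV-ERBα), a heme-binding repressor that sits in the circadian clock and turns down ARNTL, rose after 1 day of hCG and fell again by day 15. In the untreated samples it ran from 7.05 to 7.71 (median 7.64), and after 1 day of hCG it was 7.83, 8.21, 8.42 and 8.25, above all 8. The difference was 0.67 ± 0.17 (1.59-fold, adjusted p = 0.021). This call ended without untreated replicate 3 (0.09), day 10 hCG replicate 3 (0.098) or day 10 hCG replicate 4 (0.05), within array set 1 (0.67, adjusted p = 0.053) and without the array set term (0.13). After 6 days of hCG it was 7.45, 7.20, 7.33 and 7.20, below every 1-day sample, a difference of -0.88 ± 0.17 (1.84-fold lower, adjusted p = 0.0024) that passed in every alternative run and with any single sample left out.

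The lower NR1D1 level at day 15 recurred under both trilostane treatments. It fell from 7.97, 7.54, 8.17 and 7.96 in day 10 hCG with TRL to 6.55, 6.66, 7.07 and 6.84 in day 15 hCG with TRL, by 1.13 on the log2 scale (SE 0.24, adjusted p = 0.011). With TRL and R5020 it fell from 7.75, 7.33, 7.72 and 7.28 to 6.96, 6.36, 6.67 and 6.55, by 0.88 (SE 0.18, adjusted p = 0.0076). In both pairs every day 15 sample lay below every day 10 sample, with the fitted set difference removed. With TRL alone, no array set holds both days, so differences between days there rest on the set estimate. For NR1D1 the estimates were 0.47 for set 2 minus set 1 and 0.42 for set 3 minus set 1. The 3 comparisons of day 15 with day 10 use different arrays, although the near-identical pair lies in the last 2, and NR1D1 was also called in both without that pair. NR1D1 was also lower than in untreated tissue in day 15 hCG with TRL (-0.72 ± 0.17, adjusted p = 0.0098, limma). That call ended without day 15 hCG with TRL replicate 1 and without the set term (0.052 in each). In day 15 hCG with TRL and R5020 it was lower too (-0.87 ± 0.17, 0.0048), but not called within set 2 (0.055). The day 15 hCG group, at -0.21, was not called against untreated. Against day 15 hCG directly, neither day 15 trilostane group was called for NR1D1.

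RORA, the activator that competes with NR1D1 for the same DNA elements, was more scattered. Day 10 hCG samples were at 8.89, 8.40, 8.00 and 9.42 and day 10 hCG with TRL samples at 8.24, 8.77, 9.76 and 9.32, against 8.18 to 8.63 (median 8.40) untreated. At day 15 it was 8.32, 8.19, 8.23 and 7.99 with hCG, 7.94, 7.76, 7.79 and 7.99 with TRL added, and 8.01, 7.95, 8.33 and 7.90 with TRL and R5020. The fitted set differences removed here were large for RORA, -0.53 for set 2 and -1.25 for set 3, each minus set 1. RORA passed the F test (adjusted p = 0.028) and no single comparison. The differences between day 15 and day 10 were -1.15 ± 0.34 under TRL (adjusted p = 0.065) and -0.71 ± 0.25 under TRL and R5020 (0.14). A second RORA probe set gave -1.17 and passed under TRL (0.046). RORB, a related receptor, exceeded 6.2 on 2 of 33 arrays and was left out of the main fit. In a limma fit without the filter its difference between 6 days and 1 day of hCG was -1.41 (adjusted p = 0.02). At such low signals that test is not read here. Its signal lay between 5.48 and 6.39 after 1 day of hCG and between 4.27 and 4.77 after 6 days.

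Of 16 clock genes listed, 10 were measured. ARNTL (BMAL1), the positive arm of the clock and a target of both NR1D1 and the ROR receptors, moved in the same direction as NR1D1. Its mean was 9.41 ± 0.31 (SD, n = 8) untreated, 10.33 ± 0.19 (n = 4) after 1 day of hCG and 8.73 ± 0.20 (n = 4) after 6 days, a rise of 0.92 ± 0.21 (SE, adjusted p = 0.011) and then a difference of -1.60 ± 0.22 (3.9e-05). CRY2, a clock repressor, was also lower after 6 days than after 1 day (-0.86 ± 0.23, 0.025). The other 8 genes did not pass in either of these comparisons, and 8 of the 10 had a value above 0 in the first and 1 of 10 in the second. The list's median was 0.27 after 1 day, beside 0.06 over all genes, and -0.29 between days, beside -0.02. The labels used here give no hour of tissue collection.

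**Figure D3:**
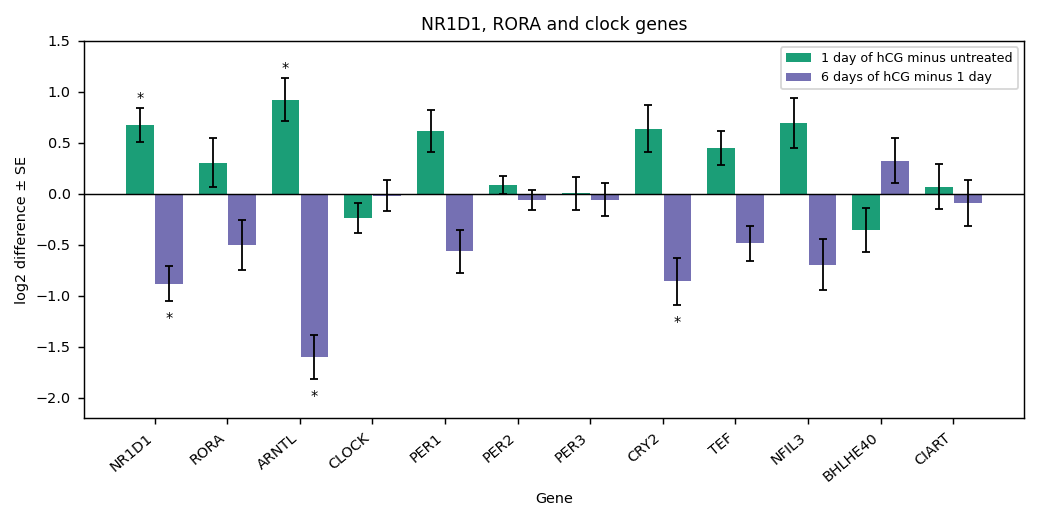
Bars give the log2 difference with its SE for NR1D1, RORA and 10 clock genes after 1 day of hCG against untreated tissue (green) and after 6 days against 1 day (violet), and asterisks mark an adjusted p under 0.05. The 2 comparisons share the day 10 hCG samples, so a gene high in those samples by any amount shows bars of opposite sign. NR1D1 and ARNTL are marked in both.

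NR4A1 (NUR77), an orphan receptor induced within minutes to hours by many signals, was lower than in untreated tissue in 2 of the 6 treated groups. Untreated samples ran from 8.60 to 9.88 (median 9.15). Levels were 8.25, 8.27, 8.57 and 8.33 after 1 day of hCG, 7.97, 9.05, 8.29 and 8.35 with TRL added, and 7.87, 8.05, 7.66 and 8.03 with TRL and R5020. At day 15 they were 9.46, 8.28, 8.47 and 9.07 with hCG, 7.91, 7.88, 7.48 and 7.96 with TRL added, and 8.06, 8.53, 8.13 and 8.28 with TRL and R5020. Day 15 hCG with TRL lay wholly below untreated tissue, at -1.34 ± 0.26 (2.54-fold lower, adjusted p = 0.0016), and so did day 10 hCG with TRL and R5020, at -1.25 ± 0.25 (2.37-fold, 0.01; 0.053 without untreated replicate 6). The groups after 1 day of hCG and after 6 days with TRL and R5020 also lay wholly below untreated tissue without passing, at -0.80 ± 0.25 (adjusted p = 0.064) and -0.90 ± 0.26 (0.05). A second NR4A1 probe set gave -1.79 and -1.62 in the 2 comparisons that passed, and passed in both.

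NR4A1 belongs to the immediate-early genes, and 9 of 14 others listed were measured. In day 15 hCG with TRL against untreated, 3 of these 9 were lower and none higher: DUSP1, a phosphatase of MAP kinases, at -1.03 ± 0.17 (adjusted p = 0.00044), IER2 at -0.76 ± 0.15 (0.0016) and JUNB, an AP-1 subunit, at -0.58 ± 0.14 (0.012). The list's median was -0.58 beside -0.02 over all genes. Its summary level was 9.07 to 10.10 over the untreated samples and 8.91 to 9.19 in day 15 hCG with TRL. The part of this shared course in the NR4A1 difference was not tested.

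NR4A2 (NURR1), of the same family, had 5 probe sets kept, in 2 patterns. The one of highest signal was 10.39, 10.67, 10.12 and 10.30 after 1 day of hCG and 10.16, 10.08, 10.06 and 10.39 with TRL, against 10.27 to 11.20 (median 10.68) untreated, and between 10.53 and 10.99 in the 12 day 15 samples. It passed the F test (adjusted p = 0.043) and no single comparison. A second probe set of the same pattern was lower in day 10 hCG with TRL than untreated (-0.73 ± 0.18, adjusted p = 0.026). The other 3, with lower signal, were instead lowest in day 10 hCG with TRL and R5020 and in day 15 hCG with TRL. Against untreated they stood at -0.82, -0.94 and -1.01 in the latter group (adjusted p 0.12 to 0.23), where the first stood at 0.06. The arrays thus give no single direction for NR4A2.

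**Figure D4:**
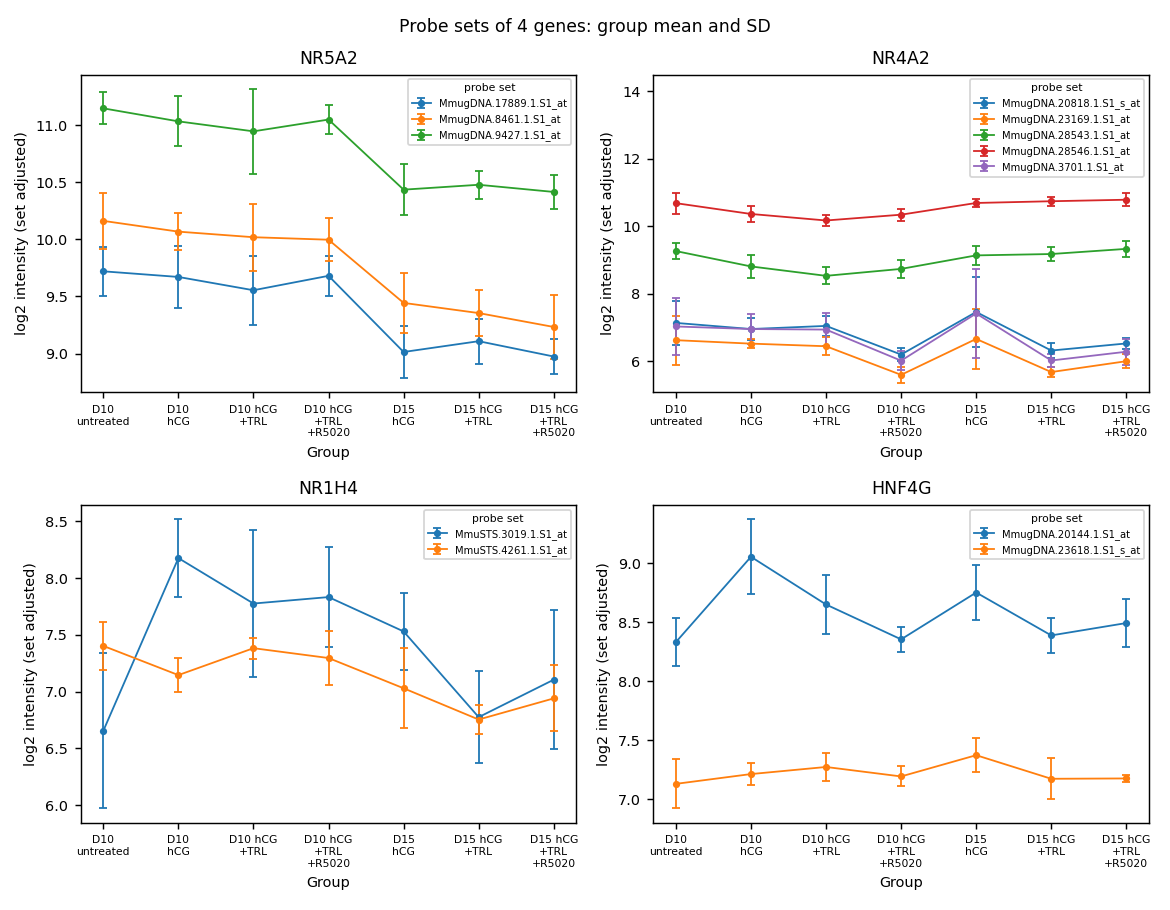
Lines join the group means (with SD, n = 8 untreated and n = 4 elsewhere) of each probe set kept for 4 genes, as log2 intensity adjusted for array set. The 3 probe sets of NR5A2 drop together at day 15, while those of NR4A2, NR1H4 and HNF4G follow different courses.

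Among the retinoid receptors, RXRA, a shared dimer partner of the RAR, PPAR, LXR and FXR receptors, was highest after 1 day of hCG. It had a low signal, above 6.2 on 18 of 33 arrays. It was 6.49, 6.63, 6.67 and 6.44 after 1 day of hCG, above all 8 untreated samples (5.78 to 6.26, median 6.07) and above the 6-day samples at 5.69, 5.83, 6.11 and 6.18. The rise over untreated was 0.50 ± 0.15 and did not pass (adjusted p = 0.054). The difference between 6 days and 1 day was -0.61 ± 0.15 (1.52-fold lower, adjusted p = 0.016), and was not called without day 10 hCG replicate 3 (0.054) or day 15 hCG replicate 1 (0.071) or 2 (0.069), or without the set term (0.068). In day 15 hCG with TRL and R5020 it was 5.39, 5.61, 5.62 and 5.64, below every untreated sample (-0.49 ± 0.15, adjusted p = 0.077). RXRB, the other RXR measured, was 8.47, 8.80, 8.86 and 8.61 after 1 day of hCG and passed nowhere.

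RARA, a retinoic acid receptor, was higher in day 15 hCG with TRL, at 9.45, 9.60, 9.33 and 9.42, than in untreated tissue, at 8.96 to 9.33 (median 9.05). Its lowest treated sample lay just above the highest untreated one, and the difference was 0.37 ± 0.10 (1.29-fold, adjusted p = 0.024). The same comparison gave 0.28 ± 0.10 (adjusted p = 0.10) in day 15 hCG and 0.29 ± 0.10 (0.13) with R5020. A second of its 5 probe sets kept also passed (0.35, adjusted p = 0.013), while the other 3 stood at -0.14 to -0.28 and did not, and their mean left no call (0.96). The call was also lost within array set 2 (0.089) and without untreated replicate 6 or 7 or day 15 hCG with TRL replicate 1 or 2 (0.06 to 0.12). RARG passed nowhere, and RARB exceeded 6.2 on 4 arrays only. Of 11 genes listed as retinoic acid targets, RARB among them, 7 were measured and none passed in the comparisons among untreated, day 10 hCG and day 15 hCG tissue.

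Of the lipid sensors, PPARD and HNF4G were called as higher after 1 day of hCG, PPARD only just. PPARD, a fatty acid receptor of oxidative metabolism, was 6.73, 7.13, 7.13 and 7.08 after 1 day of hCG against 6.16 to 6.87 (median 6.45) untreated, and 1 of the 4 treated samples lay within the untreated range. The difference of 0.54 ± 0.16 (1.45-fold) had an adjusted p of 0.048 by limma. The call ended in 23 of 32 fits leaving out 1 sample and in 6 of 10 other alternative runs. Among these were the fits within array set 1 (0.51, adjusted p = 0.13) and without the array set term (0.2). At day 15 it was 6.87, 6.42, 7.18 and 7.32 with hCG (0.46 ± 0.15, adjusted p = 0.076). PPARG, known from fat cells and macrophages, and PPARA, a receptor of fatty acid oxidation with a signal above 6.2 on 30 arrays, passed nowhere. Of 15 PPAR target genes listed, 9 were measured, and 3 rose with 1 day of hCG: CPT1A, which admits fatty acids to the mitochondrion (0.58 ± 0.13, adjusted p = 0.011), ANGPTL4 (0.96 ± 0.22, 0.011) and ACADVL (0.42 ± 0.12, 0.043). CPT1A and ANGPTL4 were also higher after 6 days. The list's median was 0.26 at day 10 beside 0.06 over all genes.

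HNF4G, a fatty-acid-binding orphan receptor, had the lowest adjusted p of the members after 1 day of hCG. It was 8.76, 9.08, 9.49 and 8.88, above all 8 untreated samples (8.01 to 8.72, median 8.32), a difference of 0.72 ± 0.16 (1.65-fold, adjusted p = 0.0073). Within array set 1 it was 0.74 (adjusted p = 0.025), and this call ended without the set term (0.32) and in no other alternative run. The F call of HNF4G (adjusted p = 0.047) ended in 7 of 9 alternatives. The day 15 hCG samples, at 8.65, 8.65, 8.60 and 9.10, were between (0.42 ± 0.15, adjusted p = 0.11). The call rests on 1 probe set: a second one kept stood at 0.08 ± 0.11, and 2 more were under the filter.

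NR1H4 (FXR), the bile acid receptor, was lower in day 15 hCG with TRL, at 6.57, 6.83, 6.85 and 6.76, than in any untreated sample (7.07 to 7.78, median 7.43), by -0.65 ± 0.16 (1.57-fold, adjusted p = 0.013; 0.063 without day 15 hCG with TRL replicate 1). Its second probe set kept stood at 0.12 there and instead rose with 1 day of hCG, by 1.52 ± 0.37 (adjusted p = 0.018), where the first stood at -0.26. The direction for NR1H4 thus depends on the probe set. NR1H3 (LXRα), an oxysterol receptor abundant in macrophages, was 9.03, 8.10, 9.30 and 8.62 in day 15 hCG with TRL and 7.78 to 8.62 (median 8.19) untreated, with overlap (0.56 ± 0.23, adjusted p = 0.13). In the same comparison 5 of 7 macrophage markers measured were higher and none lower, with a median of 1.06 beside -0.02 over all genes. Their summary level was 10.33 to 11.11 in day 15 hCG with TRL and 8.93 to 10.37 untreated, and CD68, a macrophage lysosomal protein, rose by 0.98 ± 0.22 (0.0053). Their part in the NR1H3 and other day 15 values was not tested. NR1H2 (LXRβ) passed nowhere.

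Of the COUP-TF orphans, NR2F6 was lower in 1 group and NR2F1 differed across groups. NR2F2 (COUP-TFII), found in stromal and venous cells, was 10.97 to 11.30 (median 11.12) untreated, 10.89, 11.39, 10.79 and 11.01 after 1 day of hCG and 11.16, 11.17, 10.98 and 11.01 after 6 days. The 95% intervals of its differences from untreated were -0.34 to 0.15 after 1 day and -0.27 to 0.20 after 6 days. A second probe set was lower in day 15 hCG with TRL (-0.50 ± 0.16, adjusted p = 0.048), where the first stood at -0.24 (0.24). NR2F1 (COUP-TFI) was 10.33, 10.48, 10.21 and 10.61 after 1 day of hCG and 10.26, 10.07, 9.96 and 9.79 after 6 days, and at day 15 it was 9.65 to 9.97 with TRL and 9.69 to 9.99 with TRL and R5020, below the untreated range of 10.05 to 10.31. It passed the F test (adjusted p = 0.027) and no single comparison; the nearest was 6 days against 1 day of hCG, at -0.39 ± 0.12 (adjusted p = 0.058).

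NR2F6 (EAR2), a repressor of the same family, was 7.37, 7.31, 7.15 and 7.26 in day 15 hCG with TRL, below every untreated sample (7.51 to 7.97, median 7.71), at -0.44 ± 0.12 (1.36-fold, adjusted p = 0.023). This call was lost within set 2 (0.062), without the set term (0.16), without the near-identical arrays (0.059) and without untreated replicate 6 (0.079) or day 15 hCG with TRL replicate 2 (0.053) or 3 (0.078). Its second probe set stood at -0.37 (0.12). After 1 day of hCG it was 7.84, 8.00, 8.15 and 7.89, and the difference from untreated did not pass (0.26 ± 0.12, adjusted p = 0.22). NR2C2 (TR4), an orphan receptor above 6.2 on 30 arrays, varied more within groups than between them, from 5.61 to 7.64 after 1 day of hCG, and passed nowhere.

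Of the steroid receptors, NR3C1, the glucocorticoid receptor, was well above the filter and passed nowhere. It was 9.23 to 9.70 (median 9.44) untreated, 9.56, 9.49, 9.23 and 9.61 after 1 day of hCG and 9.59, 9.80, 9.71 and 9.68 after 6 days. Its differences from untreated had 95% intervals of -0.23 to 0.22 after 1 day and -0.002 to 0.44 after 6 days. ESR2 (estrogen receptor β) was 6.33 to 6.59 (median 6.49) untreated, 6.44, 6.44, 6.66 and 6.70 after 1 day and 6.52, 6.67, 6.48 and 6.41 after 6 days, with intervals of -0.14 to 0.32 and -0.17 to 0.27, and it exceeded 6.2 on 30 arrays. The single probe set of ESR1 (estrogen receptor α) never exceeded 6.2, at 3.99 to 4.36 (median 4.10) untreated and 4.02 to 4.26 after 6 days of hCG. Of 13 glucocorticoid target genes listed, 10 were measured. Against untreated, 2 were higher after 1 day of hCG and 3 after 6 days, with none lower, and the list's medians were 0.44 and 0.07 beside 0.06 and 0.04 over all genes. TSC22D3 (GILZ) was higher in both (0.71 ± 0.17, adjusted p = 0.015, and 0.62 ± 0.16, 0.023), while after 6 days against 1 day FKBP5 was lower (-1.45 ± 0.34, 0.0087) and SGK1 higher (0.69 ± 0.17, 0.016), with a list median of -0.39 beside -0.02. HSD11B1, which regenerates active glucocorticoid in the cell, was lower after 6 days than after 1 day, by -0.82 ± 0.16 (0.0027). Of 10 estrogen target genes listed, 9 were measured. Against untreated, 3 were higher after 1 day of hCG and 2 after 6 days, with none lower and medians of 0.21 and 0.17, and after 6 days against 1 day GREB1 was lower (-1.17 ± 0.32, adjusted p = 0.026) and none higher, with a median of -0.04.

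The 8 members with probe sets that did not pass the filter were RORB, VDR, NR1I2, NR1I3, NR2E1, NR2E3, ESR1 and NR0B1. Apart from RORB, on 2 arrays, none exceeded 6.2 on any array. A low signal on these probe sets gives no bound on the transcript. Of the 26 tested, 19 exceeded 6.2 on every array, and the other 7 were RARB, RXRA, NR6A1, PPARA, NR2C2, ESR2 and NR0B2. The 11 members with no probe set of a single symbol, THRA, THRB, NR1D2, HNF4A, RXRG, NR2C1, ESRRA, ESRRB, ESRRG, NR3C2 and NR4A3, were not analysed here.

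The comparisons that address progestin withdrawal by trilostane and its replacement by R5020 called 0 of the 26 receptors with limma in any of 6 comparisons. For trilostane added to hCG, 0.00952% of all genes were called at day 10 and 0% at day 15, and 4 and 3 members had an unadjusted p under 0.05. For R5020 added to hCG with TRL the numbers were 0% of genes at both days, with 0 and 2 members at an unadjusted p under 0.05. For TRL and R5020 together against hCG they were 0% of genes at both days, with 6 and 2 members. The 2 tests of whether the effect of trilostane or of R5020 differed between days called 0 members and 0% of genes, each with 1 member at an unadjusted p under 0.05, NR4A1 in both. At day 15 most trilostane arrays are in set 2 and most hCG arrays in set 1, so those differences rest on the set estimate.

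NR4A1 had the lowest unadjusted p of the members for trilostane at day 15. The 4 samples with TRL, at 7.48 to 7.96, lay below the 4 with hCG alone, at 8.28 to 9.46, a difference of -1.02 ± 0.33 (95% interval -1.69 to -0.34, adjusted p = 0.63). With R5020 added the samples lay at 8.06 to 8.53, above all 4 without it, by 0.44 ± 0.25 (-0.07 to 0.96, adjusted p = 1). At day 10 the trilostane difference was 0.06 (-0.46 to 0.58) and the R5020 difference -0.51 (-1.23 to 0.21). RXRB was lower with trilostane at day 10, at 8.43, 8.37, 8.22 and 8.29 against 8.47 to 8.86 with hCG alone (-0.36 ± 0.11, adjusted p = 0.19). NR1H3 was lower with R5020 at day 15 by -0.52 ± 0.22 (adjusted p = 1). For NR5A2 the interval of the trilostane difference was -0.35 to 0.44 at day 15 and -0.39 to 0.21 at day 10, and that of the R5020 difference -0.36 to 0.24 at day 15.

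Between days under the same treatment, day 15 differed from day 10 in 1 of 26 members with TRL, NR1D1, lower (2.79% of genes called), and in 3 with TRL and R5020, NR1D1, NR5A1 and NR5A2, all lower (2.97%). The median over the 26 was -0.26 and -0.04, beside 0.03 and 0.01 over all genes.

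Among the proteins that nuclear receptors recruit, 12 of 16 coactivators and 9 of 12 corepressors listed were measured. PPARGC1A (PGC-1α), a coactivator of PPAR, ERR and other receptors in mitochondrial metabolism, had a mean of 5.06 ± 0.21 (SD, n = 8) untreated, 5.09 ± 0.27 (n = 4) after 1 day of hCG, 6.36 ± 0.50 after 6 days, 6.27 ± 0.74 with TRL added and 6.2 ± 0.49 with TRL and R5020. No day 10 sample was above 5.68, so it passed the filter on low signals only through the day 15 groups, and its test is not read here. PPARGC1B (PGC-1β), its relative, was lower after 1 day of hCG (-0.41 ± 0.10, 0.02). TBL1X, a corepressor subunit that helps exchange corepressor for coactivator, rose with 1 day of hCG by 0.74 ± 0.12 (0.00079) and was lower after 6 days than after 1 day (-0.52 ± 0.13, 0.012). After 1 day of hCG 1 coactivator rose and 1 fell, and 1 of 9 corepressors rose.

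Of 26 genes that supply or clear receptor ligands, 13 were measured, and none passed against untreated with hCG alone. CH25H, which makes the LXR ligand 25-hydroxycholesterol, was lower than untreated in day 15 hCG with TRL by -2.48 ± 0.38 (5.60-fold, adjusted p = 0.00016), in day 15 hCG with TRL and R5020 by -2.38 ± 0.38 (6e-04) and in day 10 hCG with TRL and R5020 by -2.35 ± 0.37 (0.0013). HSD11B1 was lower than untreated in day 15 hCG with TRL by -1.14 ± 0.16 (9.1e-05) and with TRL and R5020 by -0.87 ± 0.16 (0.0027). Trilostane added to hCG at day 15 was not called by limma for CH25H (-1.44, adjusted p = 0.64) or HSD11B1 (-0.69, 0.63). Day 15 hCG against untreated stood at -1.05 (0.087) for CH25H and -0.45 (0.096) for HSD11B1. Of 10 LXR target genes listed, NR1H3 among them, 6 were measured. None passed in the day 15 trilostane groups against untreated, and MYLIP, which degrades the LDL receptor, was lower in day 10 hCG with TRL and R5020 (-0.82 ± 0.20, 0.041).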

How the data were processed

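RNA of rhesus luteal tissue was measured on 33 Affymetrix arrays. The authors deposited 1 log2 value per probe set and array, and how they corrected and normalized it is not given in the sources used here. Array medians lay between 6.14 and 6.32, and the number of arrays limits the precision. Each array was centred on its median, 99 control probe sets were left out, and 28911 of 52865 probe sets above 6.19 on at least 4 arrays were kept: 17606 have 1 gene symbol in the platform annotation, 240 several and 11065 none. Day 15 hCG replicates 3 and 5 were averaged, giving 32 samples. Groups and array set were fitted with limma 3.58.1 in R 4.3.3 (eBayes with trend, 23 residual degrees of freedom), and p-values were adjusted by Benjamini-Hochberg over all probe sets kept. SEs and adjusted p-values come from this fit, except those given as within 1 array set, without a sample or under another alternative, which come from refits. The fitting script was tested on simulated data. A fold is 2 to the power of the log2 difference. A gene's probe set is the one kept with the highest mean. Members given by sample are those passing any test, plus ESR1, ESR2, NR3C1, NR2F2 and NR0B1. RXRB and NR1H3 are given by sample outside this rule, and RORB was named after its values were seen. List genes are named among those passing. The members and lists were chosen with earlier results of these data known; 12 comparisons were planned and 6, of treated with untreated tissue and between days within a trilostane treatment, were added after the data were seen. No sequence was used here.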

Additional observations from a re-analysis of the deposited data

Results flagged for a closer look

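In 112 sets of values (16 members in 7 groups), 9 had a highest or lowest sample far from the others by Dixon's test, where chance flags about 1 in 20. After 1 day of hCG, PPARD was lowest in replicate 1 at 6.73, with the next sample at 7.08, and NR1H4 was lowest in replicate 2 at 6.92. RARA was highest in untreated replicate 8 at 9.33. NR2F6 was lowest in day 10 hCG with TRL replicate 4 at 7.39, and NR5A1 was highest in day 10 hCG with TRL and R5020 replicate 1 at 7.80. HNF4G was highest in day 15 hCG replicate 4 at 9.10. In day 15 hCG with TRL, replicate 3 was lowest for both NR2F2, at 10.69, and NR4A1, at 7.48. RXRA was lowest in day 15 hCG with TRL and R5020 replicate 1 at 5.39. Of the 9 values, 6 were the lowest of their group and 3 the highest.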

How the results depend on the processing

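No member's called difference changed sign under any alternative run. The number of members called moved by over 1.5 times as follows; the cause was not tested. Without the array set term, 1 was called for day 10 hCG against untreated, 2 for day 15 hCG against untreated, 2 for day 15 against day 10 hCG, 3 for day 10 hCG with TRL against untreated and 7 for day 15 against day 10 with TRL. Within 1 array set the counts were 1 for day 10 hCG, 2 for day 15 against day 10 hCG and 1 for day 15 hCG with TRL and R5020 against untreated. Without the near-identical day 15 arrays, 3 were called for day 15 hCG against untreated and 1 for day 15 against day 10 with TRL and R5020. With day 15 hCG replicates 3 and 5 as separate samples, 2 were called for day 15 hCG against untreated and 2 for day 15 against day 10 with TRL; for the latter, quantile normalization called 3 and the mean of a gene's probe sets 3. Leaving out 1 sample at a time gave 1 to 4 for day 10 hCG, 1 to 3 for day 15 hCG, 1 to 5 for day 15 against day 10 hCG, 0 to 1 for day 10 hCG with TRL, 0 to 1 for day 10 hCG with TRL and R5020, 3 to 6 for day 15 hCG with TRL, 2 to 4 for day 15 hCG with TRL and R5020 (all others against untreated), 1 to 3 between days with TRL, 1 to 4 between days with TRL and R5020, and 7 to 12 for the F test.

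The replicate numbers were not used to pair samples in the main fit. Deviations of 84 same-numbered pairs correlated between -0.56 and 0.47, 22 of them over 0.1, and 9 of 28 samples matched their own number best. The median correlation was 0.016 for same-numbered pairs and 0.007 for pairs of other numbers. The titles of some day 15 trilostane samples carry other numbers, and pairing by those was not examined. With the replicate number as a block, 2 members were called for day 15 hCG against untreated, 0 for day 10 hCG with TRL and R5020, day 15 hCG with TRL and day 15 hCG with TRL and R5020 against untreated, 0 between days with TRL, 1 between days with TRL and R5020 and 3 by the F test. Numbers 6 to 9 occur only among untreated samples, so the block sets those aside. Scaling moved the median of all genes most for TRL added to hCG at day 10, from -0.11 with median centring to -0.05 with none and -0.04 with quantile normalization.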
